A study of Mus musculus with 20 samples.

Results

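The genes described here encode the interleukin-7 receptor, a chain of related receptors and the signalling chain beneath them. The interleukin-7 receptor chains are *Il7r* and *Il2rg*, whereas *Il2rb* belongs to the receptors for interleukin-2 and interleukin-15. Beneath them are the kinases *Jak1* and *Jak3*, the transcription factors *Stat5a* and *Stat5b*, and the feedback inhibitors *Socs1*, *Socs2* and *Cish*. Together these are called the genes of the chain. All 10 were chosen by symbol, by a rule that uses no measured value, though with earlier results of these data known. Each of the 10 had a row among the 39017 Ensembl genes of the expected-count table. Of these, 8 had a mean of at least 1 FPKM (counts per kb of exon and per M counts, M standing for mega) and were tested among 11339 genes, whereas *Socs2* and *Cish* did not. RNA came from the bone marrow of wild-type recipient mice carrying transplanted T lineage leukemias (T-ALLs) that had been induced by insertional mutagenesis (IM) with the MOL4070LTR retrovirus in C57Bl/6 x 129Sv/Jae F1 mice. The donors received the virus as pups in their first week of life, and the recipients were young adults that had been irradiated. Each of 9 leukemias, JW14, JW81, 8633, 5C, 2M, 20M, 73M, 73A and 78A, gave 2 libraries, one from a column whose name carries the letters VEH and one from a column whose name carries DEX. Each leukemia stands for 1 primary tumour, and nothing in the labels says whether its 2 libraries came from separate mice or gives what VEH and DEX stand for, so p-values measure only the spread between these samples.

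Interleukin-7 is made by stromal cells and binds a receptor made of the IL7R alpha chain, which the receptor for the cytokine TSLP also uses, and the common gamma chain encoded by *Il2rg*, which the receptors for IL-2, IL-4, IL-9, IL-15 and IL-21 also use. JAK1 rides on the alpha chain and JAK3 on the gamma chain, and when ligand draws them together they phosphorylate STAT5A and STAT5B, which enter the nucleus and switch on survival and cell cycle genes as well as the SOCS family inhibitors that dampen the same receptors. The pathway is required for early T cell development, and activating IL7R, JAK1, JAK3 and STAT5B mutations recur in human T-ALL.

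The 18 libraries held 8226528 to 201222288 counts, and the deepest was the VEH library of 73M. In 5 libraries, 4 of DEX (20M, 73M, JW14 and JW81) and 1 of VEH (5C), nuclear ribosomal RNA genes exceeded 1 count per M counts, so that 5 leukemias had such a library and 4 (2M, 73A, 78A and 8633) did not. The libraries of 8633 and JW14 correlated at r = 0.953 to 0.981 across genes, against 0.807 to 0.958 for other pairs of leukemias and 0.927 to 0.990 within a leukemia; genes are not independent replicates. All 12 T lineage markers were among the genes tested, and their summed level was 525 to 1315 FPKM in VEH and 548 to 1183 in DEX libraries. Marrow genes were also present: 6 neutrophil markers summed to 42.8 to 4379 FPKM in VEH and 19.6 to 2555 in DEX, and 8 erythroid markers to 1.90 to 753 and 3.73 to 101 FPKM. In such bulk samples fewer cells of a type and less RNA per cell cannot be told apart. Of 6 tested genes on a list of glucocorticoid-induced genes, written with earlier results of these data known, 4 rose in DEX and none fell (edgeR; 5 higher and 0 lower at an unadjusted p under 0.05), in a table where 6.20% of genes tested rose; 3 were called with a term for ribosomal RNA, and 0 in the 5 leukemias with such a library (4 unadjusted) or with no replicate block (2 unadjusted).

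*Il7r*, the alpha chain that gives the receptor its specificity for interleukin-7, varied more between leukemias than any other tested gene of the chain. It lies on chromosome 15 (9505788 to 9530176, minus strand, GRCm38). In 73A its level was 22.6 FPKM in the VEH library and 29.7 in the DEX library, in 73M 22.5 and 20.8, in JW14 11.9 and 30.1, and in 2M 25.4 and 13.2. In 78A the values were 7.01 and 9.56 and in 8633 5.63 and 8.98. In the remaining 3 it was far lower, with 0.164 and 0.239 FPKM in 20M, 0.398 and 0.578 in 5C, and 0.518 and 1.00 in JW81. The highest leukemia mean (73A, 26.1 FPKM) was 129.8-fold above the lowest (20M, 0.201 FPKM), and no library value rested on fewer than 21 counts. In order of mean level, 5C and JW81 overlapped in their library ranges, as did 8633 and 78A, and both pairs stood apart from the leukemias above and below. The upper 4 were not separable: 73M and 73A, neighbours in the order, did not overlap, but the libraries of JW14 and 2M overlapped with those of both. The plot of levels by leukemia shows this split together with the other genes.

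**Figure D1:**
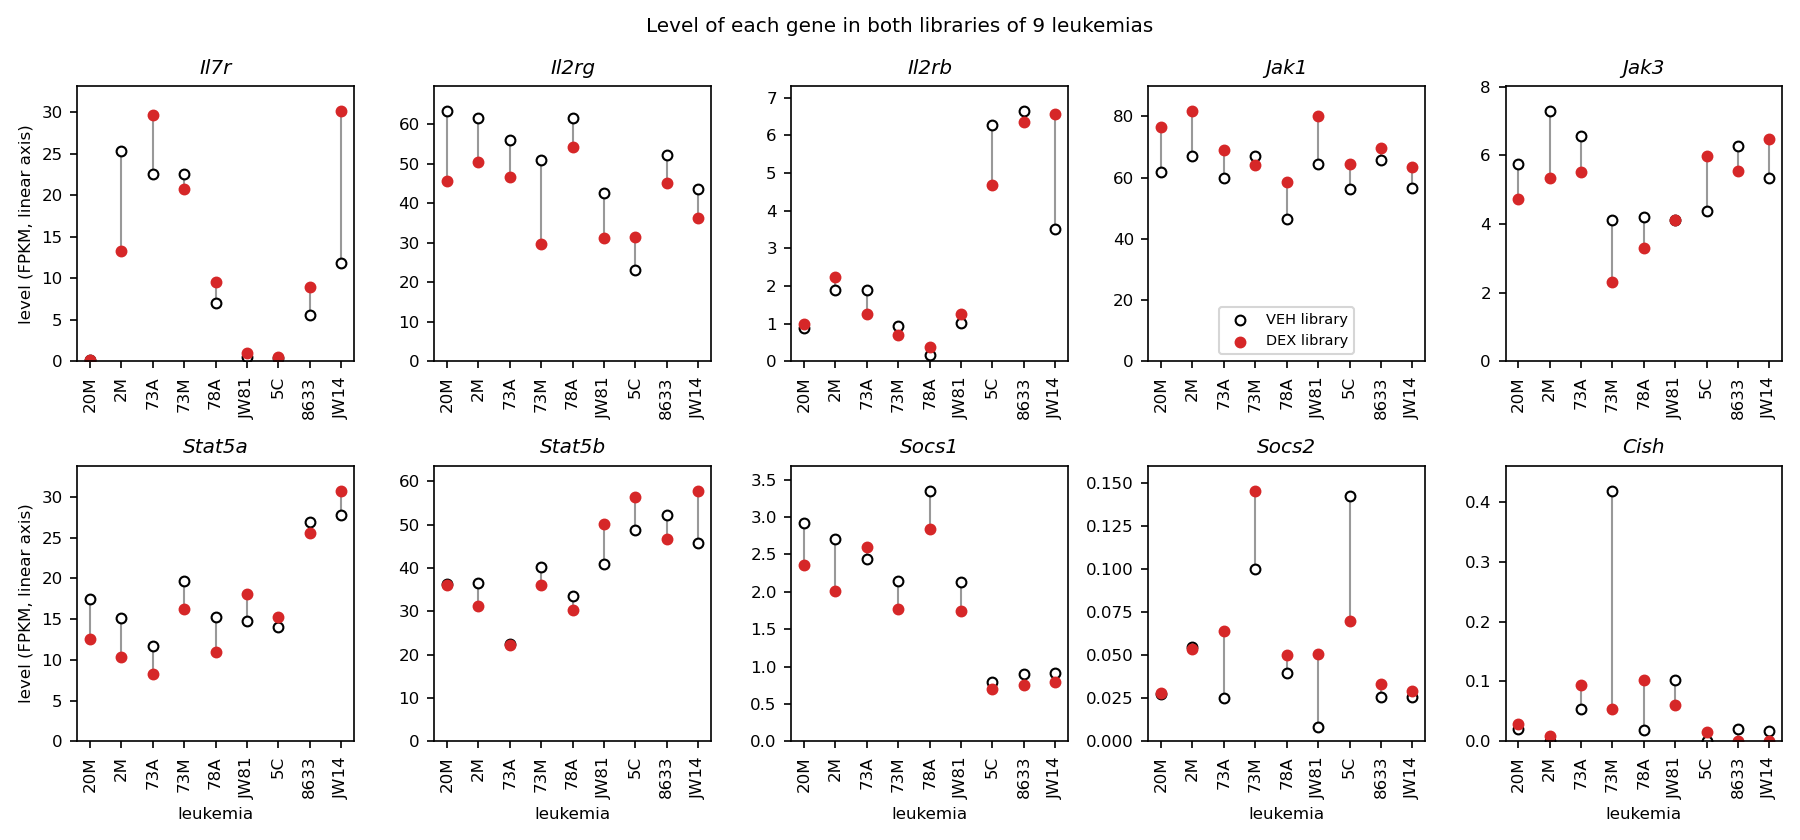
Level of the 10 genes in FPKM (linear axes from 0, one scale per panel) in the VEH (open) and DEX (filled) library of each of 9 leukemias, joined by a line. *Il7r* is at most 1.00 FPKM in 20M, 5C and JW81 and at least 5.63 FPKM elsewhere, and *Socs1* is lowest and *Il2rb* highest in 5C, 8633 and JW14.

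Among leukemias, all 8 tested genes of the chain differed at an adjusted p under 0.05 (edgeR quasi-likelihood F test with the DEX or VEH letters in the model), in a table where 82.5% of all genes tested did. That share is so high that the calls single out none of the genes, and the test measures leukemias against the spread left between their 2 libraries. The size of the F statistic separated them: *Il7r* (F = 49.0, edgeR adjusted p = 1.9e-06) exceeded 91.6% of genes tested, *Il2rb* (39.6) 89.3% and *Socs1* (30.8) 85.7%. By contrast *Il2rg* (5.76), *Jak1* (4.69) and *Jak3* (4.45) were below the median F of 8.77. On the log2(FPKM + 1) scale the SD over leukemias was 1.83 for *Il7r* and 0.15 for *Jak1*, beside a median of 0.32 over all genes tested.

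*Il7r* had 2 of the 4 sequence motifs searched upstream of its start. Promoter entries from RefSeq (GRCm38.p6, 250 bases before to 50 after a start) matched 8 of the 10 genes, with none for *Il2rb* and *Socs2*. The letters TTCNNNGAA, bound by STAT5 dimers, occurred in 8.30% of 32851 promoters, and among the matched genes in *Il7r* and *Cish*. CAGGAAGT, a sequence bound by ETS factors, which are known regulators of *Il7r*, occurred in 3.33% and here in *Il7r*; both strands were searched and no matches overlapped. The glucocorticoid response element, a palindrome, occurred in 0.00913% of promoters and in none of these genes, and TGTGGT, bound by RUNX factors, in 16.8% and in *Il7r*, *Il2rg* and *Stat5a*. A match is a run of letters and not a measured site. The windows are printed for the gene with the widest range of levels and for the feedback gene with paired STAT5 motifs, with the match in capitals. Counted from 0 at the RefSeq start, the *Il7r* matches span positions -49 to -42 and -142 to -134; their windows (chr15:9529907-9529936 and chr15:9530000-9530029, minus strand) lie in an intron of a noncoding *Il7r* transcript of GENCODE M21 and in no exon. The *Cish* window (chr9:107296654-107296683, plus strand) spans the RefSeq start and lies in the first exon, in the 5′ UTR, of the GENCODE M21 transcript.
Il7r, ETS letters: cttttgctcagACTTCCTGtttctggcact
Il7r, STAT5 letters: agttcaggagcTTCAGGGAAtaccaagatg
Cish, STAT5 letters: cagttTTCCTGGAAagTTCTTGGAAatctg

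The gamma chain was present at every level of *Il7r*. *Il2rg* (chromosome X, 101264378 to 101268255), the shared gamma chain without which the receptor cannot signal, was present in every library, from 23.2 FPKM in the VEH library of 5C through medians of 52.1 in VEH and 45.1 in DEX to 63.3 FPKM in the VEH library of 20M. Of the 3 leukemias lowest for *Il7r*, 5C (27.3 FPKM) and JW81 (36.9) were also the lowest for *Il2rg*, whereas 20M (54.5) was among the 3 highest, and every pair of neighbours in the order of *Il2rg* overlapped in library range.

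*Il2rb* (chromosome 15, 78479256 to 78495271), the beta chain of the interleukin-2 and interleukin-15 receptors, was uneven. Its libraries held 6.27 and 4.70 FPKM in 5C (VEH first), 6.65 and 6.35 in 8633, and 3.53 and 6.58 in JW14. In the other leukemias they ranged from 0.182 FPKM in the VEH library of 78A to 2.25 in the DEX library of 2M. The lowest of the first 3 leukemia means, 5.05 FPKM, was apart from the next, 2.07 FPKM in 2M. Markers of NK cells, a cell type that uses this chain, summed to 27.8 and 42.0 FPKM in 5C, 122 and 132 in 8633 and 132 and 80.6 in JW14. In 2M they summed to 453 and 278 and in 73A to 306 and 231. Most of this sum was *Gzma*, with a mean of 152 FPKM, while no other marker had a mean above 2.17. Of the 4 NK markers tested, *Gzma*, *Nkg7* and *Prf1* were highest in 2M, and *Klrb1c* was highest in 5C (3.49 FPKM). The part of such cells in the levels was not tested.

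*Jak1*, which encodes the kinase of the alpha chain, was the most even of the tested genes and one of the most abundant, at 65.1 ± 6.77 FPKM (SD over 9 leukemias) on chromosome 4 (101152367 to 101265282). Its leukemia means ran from 52.5 in 78A to 74.4 in 2M, and all neighbours in the order overlapped. *Jak3* (chromosome 8, 71676296 to 71690575), the kinase of the gamma chain, was at 5.07 ± 1.12 FPKM, from 3.21 in 73M to 6.31 in 2M. Per kb of exon, the FPKM level of *Jak1* was therefore above that of *Jak3* in every leukemia.

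*Stat5b* (chromosome 11, 100780731 to 100850724) had the higher FPKM of the STAT5 pair, at 40.2 ± 10.3 against 17.3 ± 6.41 for *Stat5a* (chromosome 11, 100859351 to 100885169). These levels divide by merged exon lengths of 7133 bases for *Stat5a* and 5539 for *Stat5b*. The protein-coding transcripts held 4199 distinct 100-base windows for *Stat5a* and 5438 for *Stat5b*, the opposite order. The size of the difference therefore depends on the length used, and its sign may too. The ratio of *Stat5b* to *Stat5a* was 1.65 to 3.69 over the 18 libraries. The genes are adjacent near-copies, and 6.31% of the 100-base windows of *Stat5a* transcripts also occur in *Stat5b* (4.87% of those of *Stat5b*), so the split that RSEM made between them is uncertain for such reads. *Stat5a* was highest in JW14 (27.8 FPKM in VEH, 30.7 in DEX) and 8633 (26.9 and 25.6), each apart from its lower neighbour. *Stat5b* was highest in 5C, JW14 and 8633, with means of 49.5 to 52.6 FPKM, and lowest in 73A at 22.3 FPKM.

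The feedback genes were low. *Socs1* (chromosome 16, 10782240 to 10785536), whose product blocks JAK kinases, was at 0.791 and 0.699 FPKM in 5C (VEH first), 0.904 and 0.754 in 8633 and 0.911 and 0.794 in JW14. Elsewhere its libraries ranged from 1.74 FPKM in the DEX library of JW81 to 3.35 in the VEH library of 78A. No library of 5C, 8633 or JW14 reached the range of the others, so the order of *Socs1* had 1 gap. The 3 leukemias below it had the highest means of *Il2rb* and, with no such gap (8633 and JW81 overlapped), of *Stat5b*. These 3 also had the lowest scores for a list of 8 NOTCH1 targets, *Il2ra* among them (mean log2(FPKM + 1) of 0.28 to 0.62, against 4.14 to 5.17 in the other leukemias), as the plot of levels in pairs shows. The 9 points fall into separate clusters, so no correlation is given. The NOTCH1 list was not alone in this: 5C, 8633 and JW14 also had the lowest scores for T lineage markers (4.37 to 4.60, against at least 4.81). The same held for other JAK and STAT genes (2.72 to 2.97, against at least 3.43) and other SOCS genes (2.06 to 2.29, against at least 2.53).

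**Figure D2:**
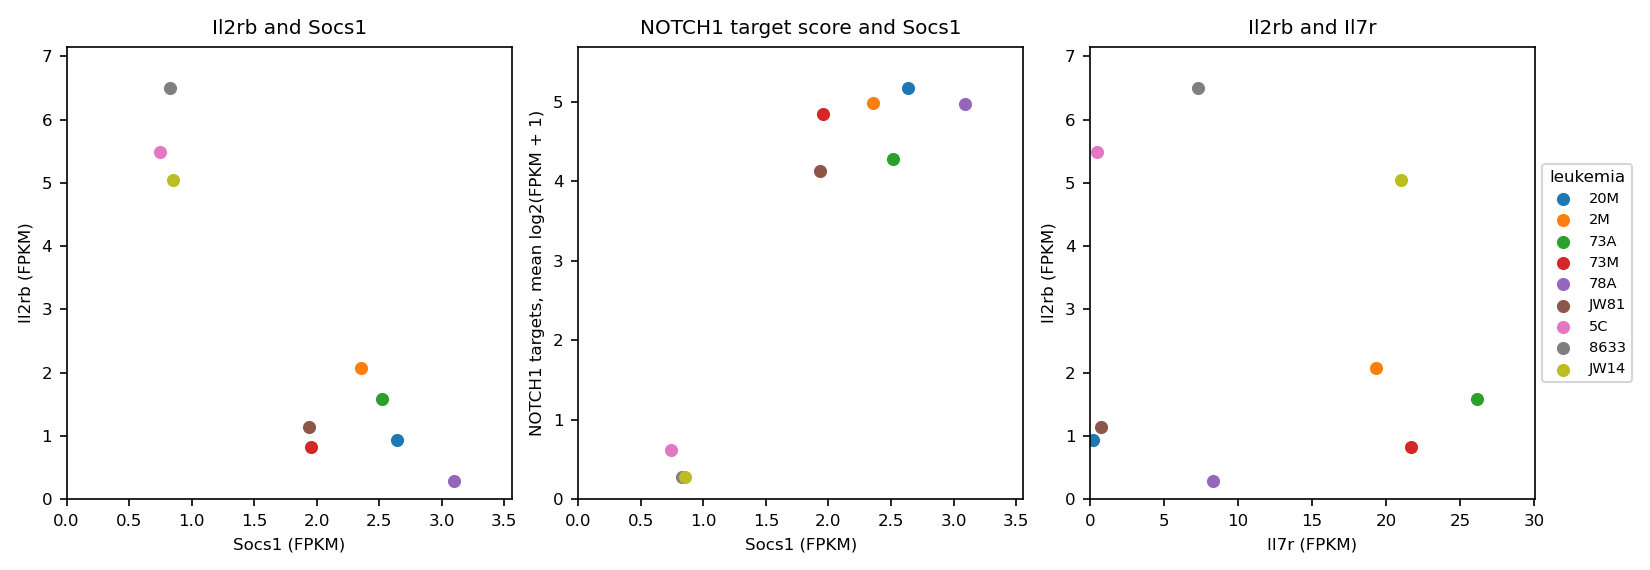
Mean level of each of 9 leukemias (1 point each, linear axes), with *Il2rb* against *Socs1* in FPKM on the left, the mean log2(FPKM + 1) of 8 NOTCH1 targets against *Socs1* in the middle and *Il2rb* against *Il7r* on the right. 5C, 8633 and JW14 lie apart in the first 2 panels and are spread along the *Il7r* axis in the third.

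*Socs2* and *Cish*, feedback genes that STAT5 is known to induce, were close to the limit of detection. *Socs2* (chromosome 10, 95385362 to 95417180) had a median of 0.0275 FPKM in VEH and 0.0505 in DEX libraries and did not exceed 0.146 FPKM, and 3 of 18 libraries held 3 or fewer counts. *Cish* (chromosome 9, 107296026 to 107302784) had medians of 0.0198 and 0.0289 FPKM, and 6 of 18 libraries held 3 or fewer counts. A count of 0 for *Cish*, as in the VEH libraries of 2M and 5C and the DEX libraries of 8633 and JW14, allows 0.0205 to 0.0568 FPKM (3 counts, counting error only). One library stood out: 73M VEH had 540 counts of *Cish*, or 0.418 FPKM, and 73M DEX 0.0539 FPKM. Erythroid markers summed to 753 FPKM in the same VEH library and 101 in the DEX library. B lineage (29.8 and 5.57 FPKM), myeloid (249.8 and 69.0) and neutrophil markers (2213 and 819) were also lower in that DEX library. The genes with a pattern over leukemias most like that of *Cish* were *Aqp1*, *Car2* and *Car1* (Pearson r = 0.949, 0.943 and 0.925), which red cells express. These r values mostly reflect 73M alone, where the mean of *Cish* was 0.236 FPKM, against 0.082 in JW81, the next highest. The part of any of these cells in the *Cish* value was not tested.

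For the other genes the most similar patterns over the 9 leukemia means, chosen among all genes tested and given as a description, were as follows. *Il7r* was most like *B3gnt2* (r = 0.927), *Xpnpep3* (0.915) and *Celsr1* (0.906), of which *Xpnpep3* and *Celsr1* are on chromosome 15 as *Il7r* is. The median deviation of 419 tested chromosome 15 genes from their mean over leukemias was negative in the 3 leukemias lowest for *Il7r* (-0.24 in 20M, -0.21 in 5C and -0.28 in JW81) and in 73A (-0.17), the leukemia highest for *Il7r*, and 0.081 to 0.24 in the other 5. The part of the chromosome in the level of *Il7r* was not tested. *Il2rb* was most like *Tmem201* (0.984), *Tfb2m* (0.983) and *Zfp365* (0.969), and *Socs1* most like *Rabep2* (0.987), *Coro7* (0.986) and *Arsi* (0.981). For the remaining genes the highest r lay between 0.897 for *Jak1* and 0.974 for *Stat5a*.

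Between DEX and VEH libraries, *Jak1* rose and no other gene of the chain passed the test, although *Il2rg* also had an unadjusted p under 0.05 (0.028, edgeR). *Jak1* was 1.19-fold higher in DEX (log2 fold change 0.25 ± 0.052 SE, edgeR adjusted p = 0.0113). That is 1 of 8 tested genes, where 13.0% of all genes tested passed, 6.20% of them higher in DEX and 6.84% lower, so the count is near the background. In VEH libraries *Jak1* had a lowest value of 46.5, a median of 61.7 and a highest of 67.1 FPKM, and in DEX libraries 58.5, 68.8 and 81.7 FPKM. The groups overlapped, but within leukemias the DEX library was higher in 8 of 9 and lower in 73M (67.0 to 64.0 FPKM); 21.9% of genes tested had the same sign in at least 8 leukemias and 6.70% in all 9. The mean paired change was 0.20 ± 0.13 (SD, n = 9; exact two-sided sign-flip p = 0.0078, smallest possible p 0.0039). The log2 fold change stayed between 0.22 and 0.28 in 18 alternatives, but the call was lost in 5 of them, and edgeR or DESeq2 adjusted p ran from 4.8e-05 to 0.626: it was 0.067 in the 4 leukemias with no library above the ribosomal RNA limit, 0.190 in the 5 with one, 0.086 without 2M and 73A, 0.071 without a filter on low genes, and 0.626 with no replicate block.

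**Figure D3:**
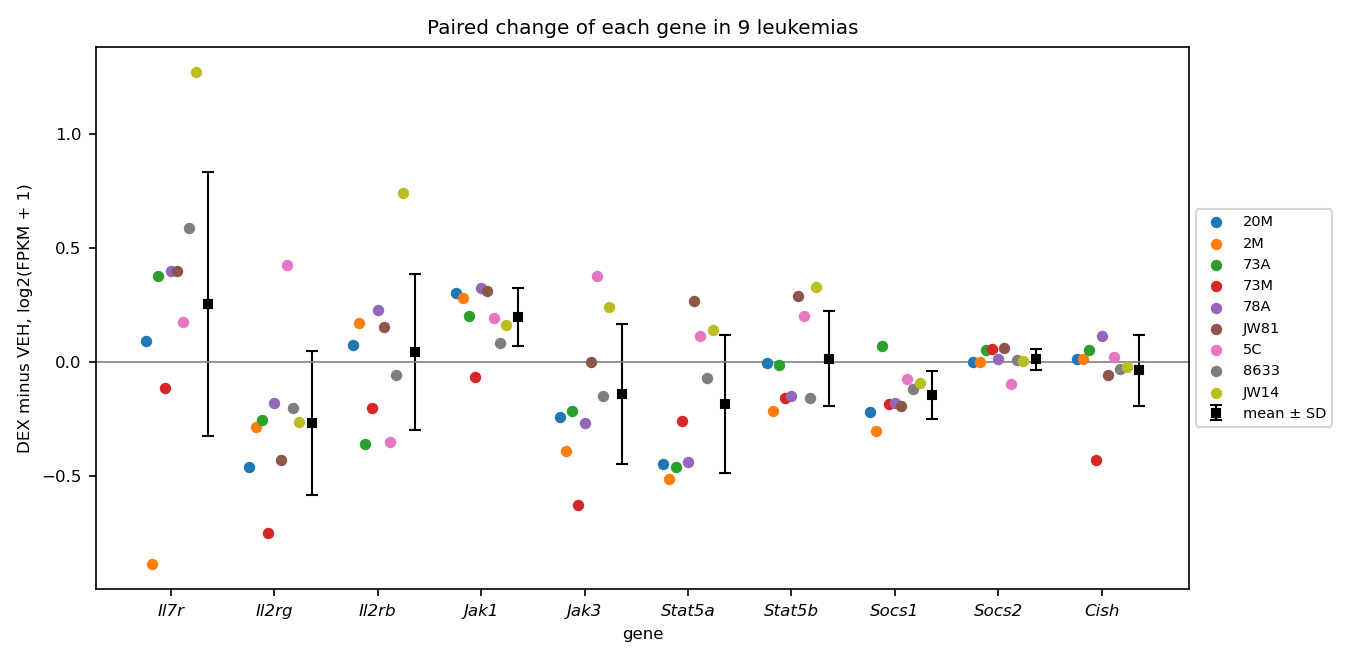
DEX minus VEH difference of log2(FPKM + 1) for each gene, 1 point per leukemia, with the mean ± SD over 9 leukemias (black). *Jak1* lies above 0 in 8 of 9 leukemias and *Il2rg* and *Socs1* below 0 in 8 of 9, while *Il7r* spans -0.89 in 2M to 1.27 in JW14.

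*Il7r* had the widest spread of paired changes. Its DEX library was higher in 7 of 9 leukemias, most in JW14 (11.9 to 30.1 FPKM, 1.27 on the log2(FPKM + 1) scale) and 8633 (0.59), and lower in 2M (25.4 to 13.2 FPKM, -0.89) and 73M (-0.11). The fitted log2 fold change of 0.42 ± 0.21 SE did not pass (edgeR adjusted p = 0.189). Without 2M the value was 0.63 and passed (edgeR adjusted p = 0.022), the only 1 of 18 alternatives in which it did. Without 2M and 73A it was 0.66 and did not pass (edgeR adjusted p = 0.055). The value also moved with the ribosomal RNA libraries and was 0.30, without passing, with a term for them. It was 0.18 in the 4 leukemias without such a library (edgeR adjusted p = 0.778) and 0.71 in the 5 with one (0.135). Over the 18 alternatives the value ran from 0.18 to 0.71 and the adjusted p from 0.022 to 1.00. The name of the DEX column of 2M matches the leukemia but the title of neither 2M sample.

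*Il2rg* had lower values in the DEX library of 8 of 9 leukemias, by 0.18 (78A) to 0.75 (73M), and a higher one in 5C (23.2 to 31.5 FPKM). In 73M, neutrophil (2213 to 819 FPKM) and erythroid markers (753 to 101) were also lower in the DEX library, and their part in this fall was not tested. The log2 fold change of *Il2rg*, -0.23 ± 0.091 SE, did not pass either (edgeR adjusted p = 0.114). The exact two-sided sign-flip p was 0.031 before any correction for the 10 genes. Without 5C, the leukemia in which the VEH library was above the ribosomal RNA limit, it was -0.31 with an edgeR adjusted p of 0.0076, within a range over alternatives of 0.0076 to 0.945; with a term for libraries above the limit it was -0.097 (edgeR adjusted p = 0.406). *Il2rb* differed by 0.15 ± 0.16 SE (edgeR adjusted p = 0.536), with 5 leukemias higher and 4 lower in DEX.

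Of the other kinase and the transcription factors none passed. *Jak3* differed by -0.13 ± 0.11 SE (edgeR adjusted p = 0.422), *Stat5a* by -0.15 ± 0.098 (0.306) and *Stat5b* by 0.063 ± 0.069 (0.561). With the counts of the STAT5 pair summed, which removes the uncertain split, the difference was -0.012 ± 0.076 SE (edgeR adjusted p = 0.932). *Stat5a* was lower in the DEX library of 6 of 9 leukemias and the ratio of *Stat5b* to *Stat5a* was higher in DEX in 8 of 9, a count chosen after its values were seen. The sign of *Stat5a* and of *Stat5b* depended on which leukemias were fitted: *Stat5a* was 0.011 in the 5 leukemias with a library above the ribosomal RNA limit and *Stat5b* -0.097 in the other 4.

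*Socs1* was lower in the DEX library of 8 of 9 leukemias and higher in 73A (2.43 to 2.60 FPKM). Its medians were 2.14 FPKM in VEH and 1.77 in DEX, and the exact two-sided sign-flip p was 0.0078, but the fitted difference of -0.18 ± 0.089 SE did not pass across all genes (edgeR adjusted p = 0.178). For *Socs2* and *Cish*, which were fitted only when no filter was applied, the differences were 0.38 ± 0.31 SE and -0.13 ± 0.65 SE (edgeR adjusted p = 0.634 and 0.946). With errors of that size only large changes were detectable.

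Around these genes, 4 lists written with earlier results of these data known hold 38 other genes of the pathway, of which 31 were tested; 5 rose in DEX, 4 fell and 22 did not pass (6.20% of all genes tested rose and 6.84% fell), with a median log2 fold change of -0.035 against 0.0039 for all genes tested. Among receptors and ligands, *Il9r*, the interleukin-9 receptor chain that also pairs with the gamma chain, rose by 0.43 ± 0.10 SE (edgeR adjusted p = 0.023, higher in 8 of 9 leukemias), and *Crlf2*, the partner of IL7R in the receptor for TSLP, rose by 0.56 ± 0.17 (0.048, 7 of 9). The size of the *Crlf2* difference moved with the ribosomal RNA libraries: it was 0.35 with a term for them (edgeR adjusted p = 0.173), 0.21 in the 4 leukemias without one (0.524) and 0.81 in the 5 with one (0.130), over a range of adjusted p of 0.022 to 0.897. *Il2ra*, the alpha chain of the interleukin-2 receptor, fell by 0.96 on the log2 scale (SE 0.20, edgeR adjusted p = 0.016, lower in 7 of 9). Its leukemia means ran from 0.042 FPKM in 8633 to 110 in JW81, so the value does not describe all leukemias alike. The value stayed between -0.85 and -1.18 in the alternatives. The call was lost with DESeq2 (DESeq2 adjusted p = 0.060) and without 2M (edgeR adjusted p = 0.051). It was also lost without 2M and 73A (0.120), in the 5 leukemias with a library above the ribosomal RNA limit (0.227) and with no replicate block. The ligand genes *Il7*, *Tslp*, *Il2*, *Il4*, *Il15* and *Il21* were below the 1 FPKM mean and were not tested. Of the tested receptors that did not pass, the most abundant were *Il21r* (-0.31 ± 0.13) and *Il4ra* (-0.15 ± 0.068) (edgeR adjusted p = 0.131 and 0.148).

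*Jak2*, a kinase of other cytokine receptors, rose by 0.30 ± 0.088 SE (edgeR adjusted p = 0.042, 7 of 9), the only 1 of 7 other JAK and STAT genes to pass. *Stat6* (-0.0038 ± 0.059) did not. Of 5 other SOCS genes, *Socs7* fell by 0.19 on the log2 scale (SE 0.052, edgeR adjusted p = 0.035) and was lower in 9 of 9 leukemias; *Socs4* was also lower in 9 of 9 (-0.18 ± 0.056, edgeR adjusted p = 0.057), and *Socs3* differed by -0.23 ± 0.20 (0.456). Among 13 tested phosphatases and adaptors, a mixed list that also holds signalling adaptors and the PIAS inhibitors of STATs, *Ptpn1* rose by 0.32 ± 0.066 SE (edgeR adjusted p = 0.011) and *Ptprc*, encoding CD45, by 0.29 ± 0.080 (0.037). *Cbl*, a ubiquitin ligase, fell by 0.40 and *Ptpn6*, encoding the phosphatase SHP-1, by 0.32 on the log2 scale (SE 0.11 and 0.089, edgeR adjusted p = 0.033 and 0.038). *Ptpn2* (-0.099 ± 0.077) and *Ptpn11* (0.049 ± 0.051) did not pass. Of these 9 calls, 2 remained with a term for the libraries above the ribosomal RNA limit (14 of 31 genes at an unadjusted p under 0.05, edgeR). With that term *Il9r* (0.45), *Jak2* (0.27), *Ptprc* (0.28) and *Socs7* (-0.19) lost the call at values near those of the main fit. *Crlf2*, *Cbl* (-0.29) and *Ptpn6* (-0.23) lost it at smaller ones. Of the 9, 1 remained without 2M, 3 without 20M or 73M, and 4 without 73A or JW81 (12 or 13 of 31 unadjusted). None of the 9 remained without 2M and 73A (11 of 31 at an unadjusted p under 0.05, edgeR) or with no replicate block (2 of 31). DESeq2 called 10 genes, and 8 of the 9 were among them.

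**Figure D4:**
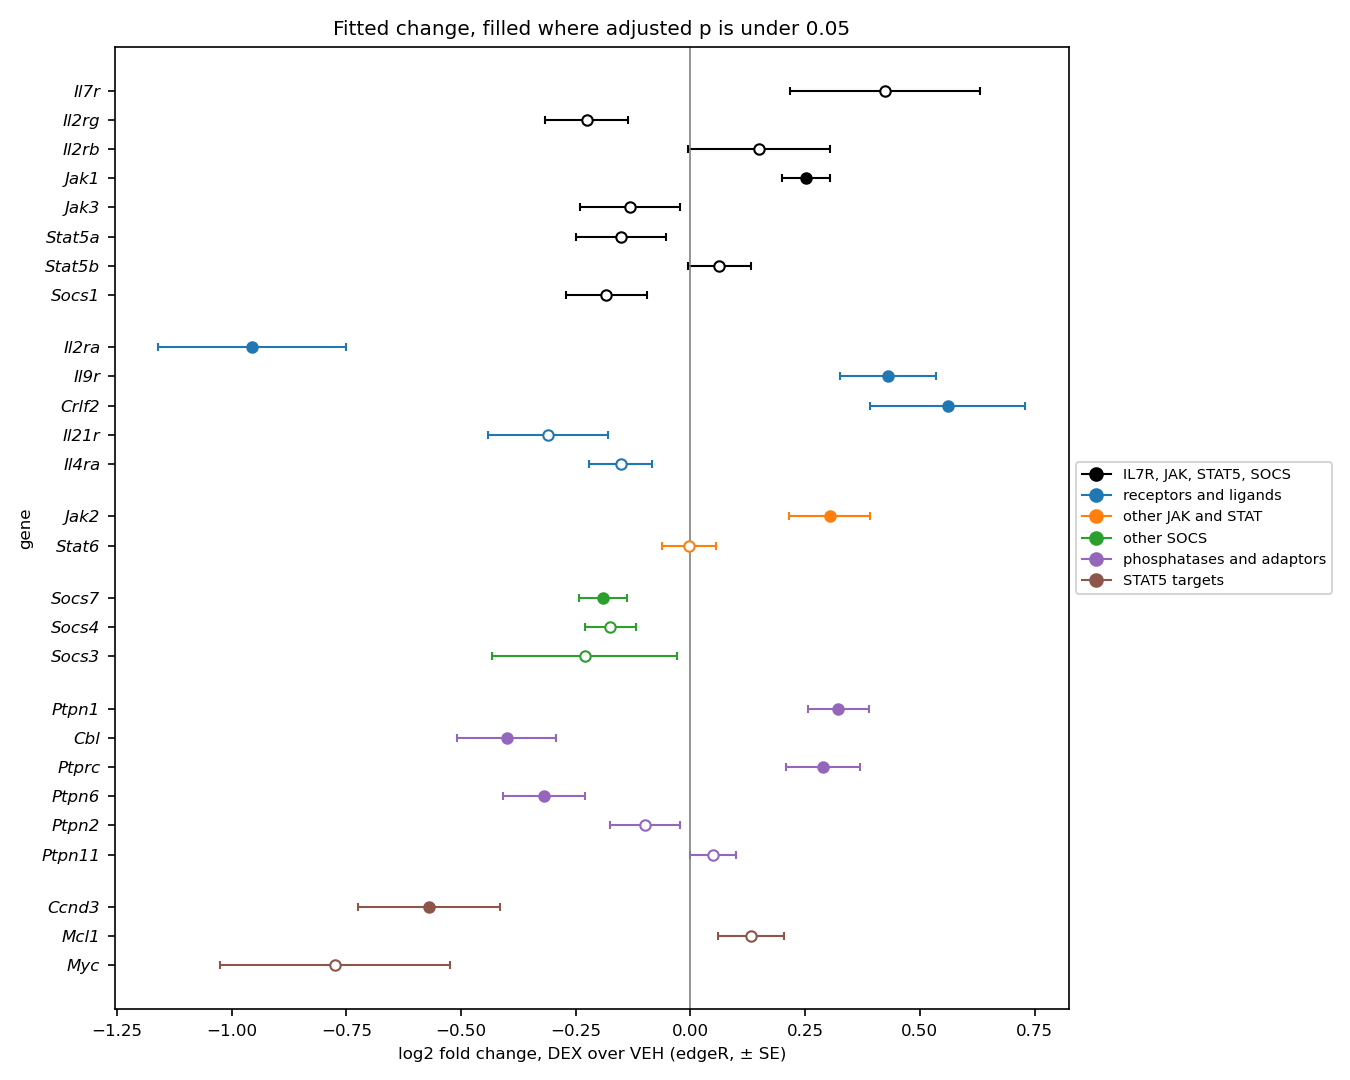
Fitted log2 fold change of DEX over VEH libraries (edgeR, ± SE, 9 leukemias) for the 8 tested genes and for 19 pathway and STAT5 target genes, coloured by list; filled points have an adjusted p under 0.05. *Jak1*, *Jak2*, *Il9r*, *Crlf2*, *Ptpn1* and *Ptprc* are filled above 0, and *Il2ra*, *Socs7*, *Cbl*, *Ptpn6* and *Ccnd3* below 0.

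Of 10 tested genes known as STAT5 targets, *Ccnd3*, a cyclin of the G1 phase, fell by 0.57 on the log2 scale (SE 0.15, edgeR adjusted p = 0.037, lower in 8 of 9 leukemias) and none rose; at an unadjusted p under 0.05, 4 were lower and 0 higher. Over all genes tested 6.84% fell, and 15.6% were lower at an unadjusted p under 0.05. The median over the list was -0.22, and the list does not mark in which direction STAT5 moves each gene. *Myc*, whose product drives growth and which many pathways induce, differed by -0.77 ± 0.25 SE without passing (edgeR adjusted p = 0.066), and the survival gene *Mcl1* by 0.13 ± 0.072 (0.223). The *Ccnd3* call was lost in many settings, though its value stayed between -0.42 and -0.77 in all of them. The edgeR adjusted p was 0.111 with a term for the ribosomal RNA libraries and 0.113 without a filter on low genes. Without 20M, 2M, 73A, 73M or 78A in turn it was 0.065 to 0.088. It was 0.128 in the 4 leukemias without such a library, 0.208 in the 5 with one and 0.162 without 2M and 73A. With no replicate block it was 0.897, the highest value, and the lowest was 0.0015 with DESeq2. DESeq2 called 4 genes of the list lower and none higher, and edgeR called 3 without 5C, 2 without JW14 and 0 without any of 20M, 2M, 73A or 73M in turn (4 or 5 at an unadjusted p under 0.05).

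Whether feedback genes move with the receptor from leukemia to leukemia was asked with the 9 paired changes. The change of *Il7r* and that of *Socs1* had r = 0.57 (exact permutation p = 0.108, adjusted over 4 relations 0.433; Spearman rho 0.48, exact permutation p = 0.194, adjusted 0.694). For *Socs2* r was 0.061 (exact permutation p = 0.862, rho 0.27), for *Cish* 0.16 (0.525, rho -0.10) and for the survival gene *Bcl2* 0.10 (0.742, rho 0.25), each with an adjusted p of 0.862 for r and of at least 0.694 for rho. No relation passed, and without 2M and JW14, the leukemias farthest from the median change of *Il7r*, r was 0.30, 0.065, 0.65 and -0.31 in the same order (n = 7). No r was computed within the 4 leukemias with no library above the ribosomal RNA limit or within the 5 with one.

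**Figure D5:**
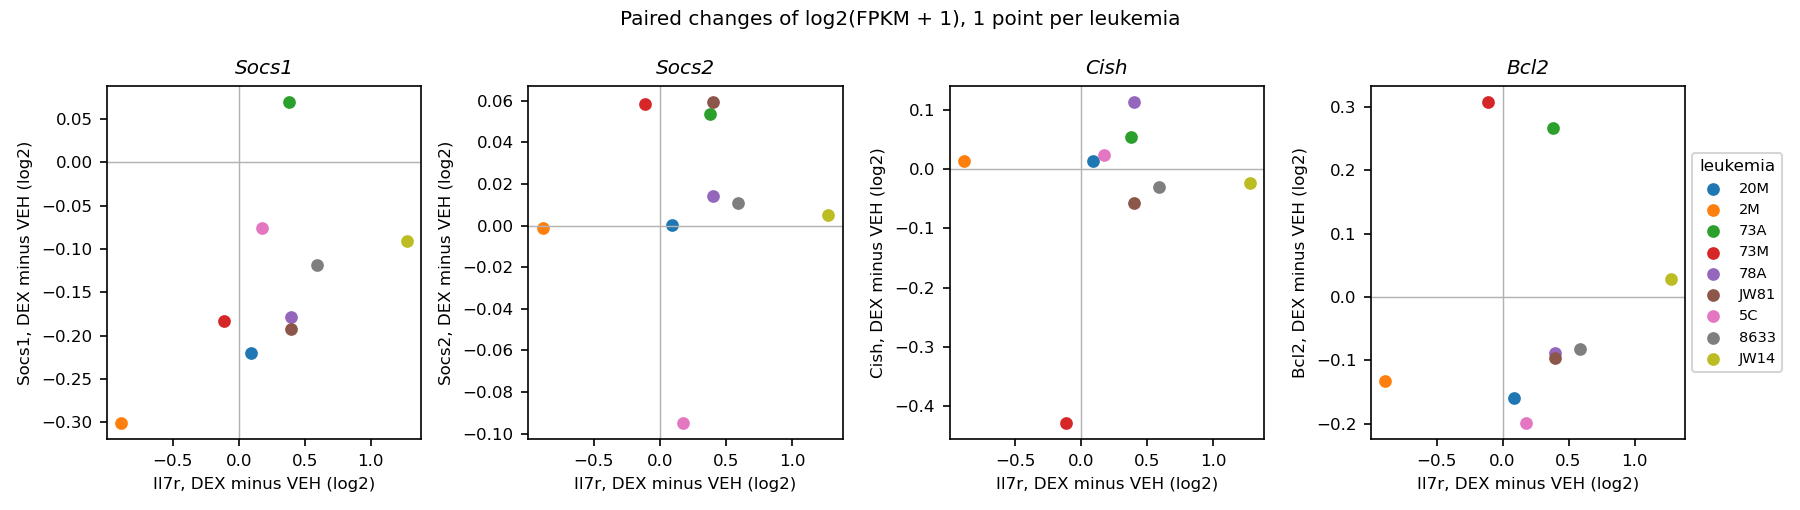
Paired DEX minus VEH change of log2(FPKM + 1) of *Socs1*, *Socs2*, *Cish* and *Bcl2* against that of *Il7r*, 1 point per leukemia (n = 9). The 2M point at -0.89 is the lowest on the *Il7r* axis and the JW14 point at 1.27 the highest, and the vertical scale differs between panels.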

How the data were processed

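RNA from leukemic bone marrow was sequenced by the authors as poly(A)-selected TruSeq libraries with paired ends. Per the labels' processing notes, reads were aligned with Bowtie 2 to mm10 and quantified with RSEM; the values deposited are expected counts per Ensembl gene, used here after rounding to whole numbers. The table is named for FPKM, but most values are whole and the column totals differ between libraries, so they were taken to be expected counts. FPKM was computed from these counts, the merged exon lengths of GENCODE M21 and the library totals. Libraries were grouped by the leukemia and the letters VEH or DEX in the column names; 3 columns, those of 2M, 73A and 4638 with DEX, match a leukemia but no sample title, so one alternative leaves out 2M and 73A. The pairing comes from the shared leukemia (r = 0.927 to 0.990 within leukemias). Genes whose mean reached 1 FPKM were fitted with edgeR 4.0.16 (R 4.3.3; TMM, robust quasi-likelihood, leukemia as a block, Benjamini-Hochberg adjustment, threshold 0.05); the code was checked on simulated data, and DESeq2 1.42.0 was an alternative. Paired changes used log2(FPKM + 1), all 512 sign patterns and all 362880 orders of the leukemias; a fold on that scale understates the change of low genes. Totals of 8226528 to 201222288 counts make 3 counts of a 1 kb transcript worth 0.365 to 0.0149 FPKM (counting error only). The genes and lists were chosen with earlier results of these data known. Of the lists, those past the threshold (up to 6 by p) and the 2 most abundant genes were named, 1 of which is not reported here. The leukemia 4638 entered 1 alternative alone. B lineage markers summed to 0.545 to 29.8 FPKM in VEH and 0.579 to 5.57 in DEX libraries, and myeloid markers to 13.6 to 568 and 10.1 to 328.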

Additional observations from a re-analysis of the deposited data

Results flagged for a closer look

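The highest or lowest leukemia was checked in 20 sets of 9 values, the mean level and the DEX minus VEH change of each gene, by its gap to the nearest other leukemia (Dixon's 95% limit, which chance passes in about 1 of 20 sets). The gap passed for 4. For *Il2rg* the change of 0.43 in 5C lay above all others, the next being -0.18, and for *Socs2* the change of -0.095 in 5C lay below all others, the next being -0.0014; 5C was the leukemia in which the VEH library was above the ribosomal RNA limit. *Cish* had a level of 0.29 in 73M as mean log2(FPKM + 1), against 0.11 in the next leukemia, and a change there of -0.43, against -0.058 in the next. Both *Cish* values rest on 540 counts in the deepest library. The libraries of 4638 entered 1 alternative and none of the main comparisons. They held 8.81 FPKM of *Jak3* in VEH, above the highest other library of 7.29, and 0.274 FPKM of *Socs2* in DEX, above 0.146.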

How the results depend on the processing

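The pairing decided the number of genes called between DEX and VEH: 1479 with leukemia as a block, but 6 with no replicate block (edgeR; 712 at an unadjusted p under 0.05, all 6 among the 1479). The block was also needed for the calls in the lists: with no replicate block 0 of the 8 genes of the chain, 0 pathway genes and 0 STAT5 targets were called (1, 2 and 0 at an unadjusted p under 0.05), against 1, 9 and 1. In edgeR fits a term for libraries above the ribosomal RNA limit left 422 genes, 2 pathway genes and 0 STAT5 targets (4 unadjusted), the 4 leukemias with no such library gave 375, 4 and 0 (3 unadjusted) and 0 genes of the chain (4 unadjusted), and the 5 with one gave 14, 0 (10 unadjusted), 0 (2) and 0 (2). Without 2M and 73A, a choice made after seeing the data, 185 genes, 0 pathway genes (11 unadjusted), 0 STAT5 targets (2) and 0 genes of the chain (2) were called. Without a filter on low genes the counts were 0 for the chain (2 unadjusted), 4 for the pathway and 0 for STAT5 targets (5). STAT5 targets numbered 4 with DESeq2 and 2 with 4638 included. The cause of these moves was not tested, other than that fewer samples enter some fits.

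Leaving out 1 leukemia at a time gave 660 to 2022 genes between DEX and VEH (660 without 20M, 712 without 2M, 733 without 73A, 819 without 73M and 934 without JW81), 1 to 2 genes of the chain (2 without 2M, and 2 without 5C), 1 to 9 pathway genes and 0 to 3 STAT5 targets. Among leukemias, 7 (without 78A) or 8 of the 8 genes of the chain passing the filter were called with each leukemia left out, with the other size factors, DESeq2, 4638 or the ribosomal RNA term. The *Il7r* relation had r = 0.74 for *Socs1* with 4638 included (permutation p = 0.015) and 0.78 without 73A (exact permutation p = 0.027), over a range of 0.28 to 0.78 without single leukemias; for *Socs2* the range was -0.024 to 0.17, for *Cish* -0.20 to 0.38 and for *Bcl2* -0.11 to 0.36, with -0.038 at a pseudocount of 0.1. Signs turned for values near 0: *Stat5a* was 0.011, *Mcl1* -0.029 and *Stat6* 0.035 in the 5 leukemias above, *Stat5b* was -0.097 in the 4, and *Stat6* was 0.044 with the ribosomal RNA term, 0.0049 without 2M and 73A, and -0.052 to 0.023 without single leukemias. Depth limits *Socs2* and *Cish* most.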

Other observations

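The leukemia 4638 entered 1 alternative setting and none of the main comparisons. *Il7r* was at 1.85 FPKM in its VEH library and 7.17 in its DEX library, a change of 1.52 on the log2(FPKM + 1) scale that exceeded that of each of the 9 leukemias compared. *Jak1*, the most even gene elsewhere, was at 33.4 and 33.8 FPKM, below all 18 other libraries. Its T lineage markers summed to 352 FPKM in VEH and to less in DEX, both below all 18 other libraries, and its neutrophil (7696 and 4492), myeloid (1383 and 952) and B lineage markers (31.2 and 50.1) were above the highest other library of each list; their part in these levels was not tested. Its NOTCH1 target score was 0.91, nearest to the 0.62 of 5C, and *Il2rb* was at 3.81 and 4.60 FPKM, within the range of the JW14 libraries.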
